A study of Rattus norvegicus with 13 samples.

Results

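Nicotinic acetylcholine receptors are ligand-gated cation channels built from a ring of subunits, opened by acetylcholine and by nicotine. The subunits combine in forms that differ between cell types. In rodent brain Chrna4 and Chrnb2 encode the most abundant form and Chrna7 a form that needs no other subunit. Chrna6 and Chrnb3 are known from midbrain dopamine neurons and a few other nuclei, Chrna5 is an accessory subunit of dopamine, habenular and interpeduncular neurons, and Chrna3 with Chrnb4 is the form of the medial habenula and of peripheral ganglia. The 8 genes encoding these neuronal subunits (Chrna3, Chrna4, Chrna5, Chrna6, Chrna7, Chrnb2, Chrnb3 and Chrnb4) were taken by symbol from 17366 rows of gene expression in rat hypothalamus, and the subunits that mark dopamine or habenular neurons were set beside the widely expressed ones. The members were selected on their symbols, and a measured value, the mean FPKM, would have decided only between several rows of one symbol. Each symbol had 1 row, so none did. The family was picked for description with earlier diet results of these data known, and its tests are not independent evidence.

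RNA was sequenced from whole hypothalamus of 13 rats, 6 on a high-fructose diet with 55% fructose and 7 on standard chow with 0.30% fructose. Both diets began on postnatal day 25, when the rats were housed in pairs. All rats were fasted overnight on day 79 in preparation for a glucose challenge. They were killed on day 80, 1 h after saline or a glucose dose of 2 g per kg had been injected. The strain, the sex, the cage mates and the injection of each sequenced rat were not stated in the labels, so these and diet cannot be told apart. Levels are in FPKM, counts of fragments scaled to transcript length and library size, which allow levels of different genes to be compared.

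Columns of the 13 rats summed to between 556902 and 608058 FPKM, none were identical, and the depth of the libraries is unknown. The hypothalamic peptide genes Pmch (1345 to 5669 FPKM on fructose, 3607 to 7136 on chow) and Hcrt (217 to 842 and 441 to 1012 FPKM on fructose and on chow) were present in every rat. The summed level of 15 hypothalamic markers ran from 1596 to 7011 FPKM in fructose rats and from 4100 to 9531 FPKM in chow rats, and most of it was Pmch. Fructose replicates 1, 3 and 5, at 2272, 2885 and 1596 FPKM, lay under every chow rat. Fructose replicates 2, 4 and 6, at 6346, 7011 and 5579 FPKM, lay within the chow range. Of the 14 markers tested between diets as described below, 0 were called, where 3.94% of all genes tested were. Their median log2 fold change was 0.02, but single values ran from -1.99 for Oxt to 0.84 for Hdc and Nr5a1. The median therefore does not show that the markers were unchanged. Rax was listed at 0 in 4 fructose and 3 chow rats. Markers of midbrain dopamine neurons and of the thalamus were also present, at levels that differed between rats and are described below with the subunits they moved with. Which region that RNA came from was not tested. In such bulk samples fewer cells of a type and less RNA per cell cannot be told apart.

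Fructose rats had far more RNA of the 3 subunits known from dopamine neurons, Chrna6, Chrnb3 and Chrna5, and less of the widely expressed subunit Chrna4. Differences were tested across the 11837 genes that averaged 0.5 FPKM or more by limma, a linear model on log2(FPKM + 0.5) that shares information on spread between genes, and an adjusted p under 0.05 was called. Of the 8 subunits, which all passed that level, 3 rose, 1 fell and 4 were not called. Chrnb3, Chrna5 and Chrnb4 averaged under it in chow rats (0.156, 0.2002 and 0.430 FPKM) and passed only through the fructose rats. With no filter on low values Chrnb3 and Chrna5 were still called (limma adjusted p = 0.000522 and 0.00101). Over all genes tested 3.94% were called, 1.66% higher and 2.27% lower on fructose. For Chrna6, Chrnb3 and Chrna5 each fructose rat exceeded every chow rat, and for none of the other 5 subunits did the diets separate, while 0.879% of the genes tested lay wholly above and 0.727% wholly below. The median log2 difference over all genes was 0.001, and the median size of a difference 0.09.

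**Figure D1:**
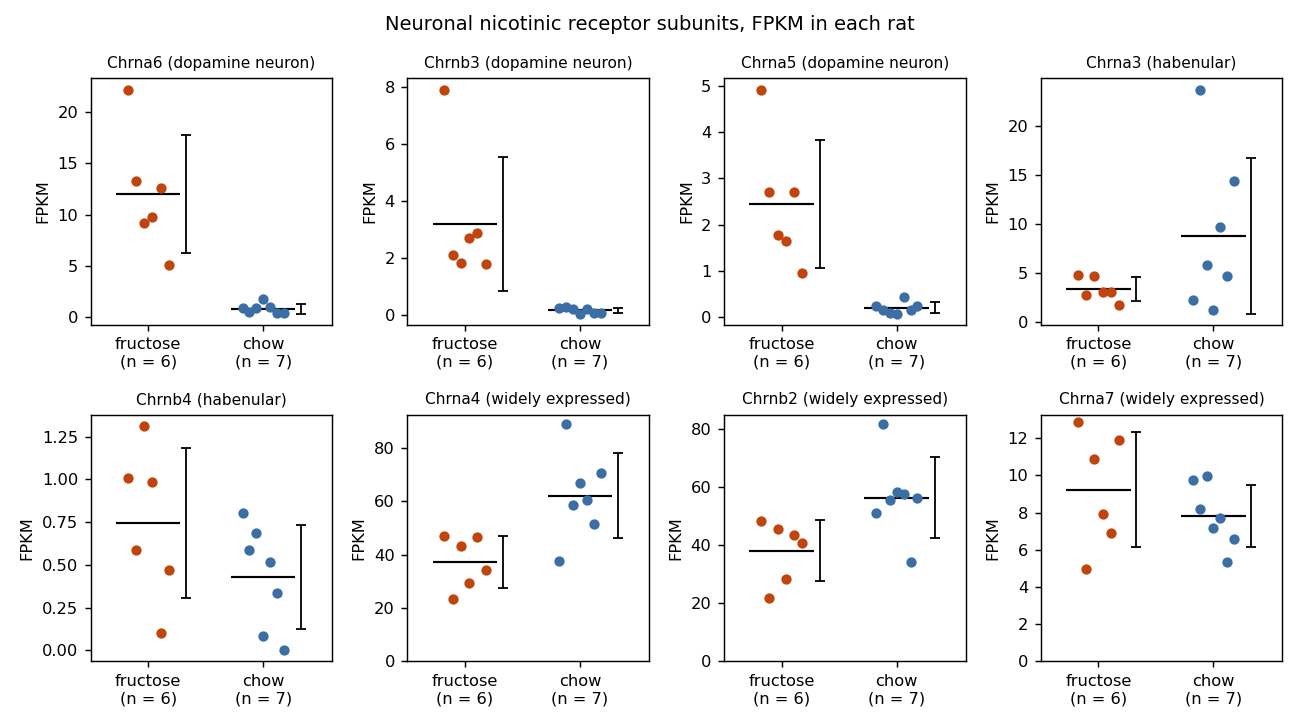
FPKM of each subunit in each of 6 fructose and 7 chow rats, with the mean as a line and the SD as a bar beside it; panels have separate scales. For Chrna6, Chrnb3 and Chrna5 every fructose rat lies above every chow rat, whereas the diets overlap for the other subunits.

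Chrna6 encodes a ligand-binding subunit that dopamine neurons insert into receptors at their terminals. Its level was 5.09 FPKM at the lowest, 11.2 at the median and 22.2 at the highest in fructose rats, against 0.368, 0.897 and 1.78 FPKM in chow rats. The lowest fructose rat thus stood well above the highest chow rat, chow replicate 4. Mean levels were 12.02 ± 5.77 FPKM on fructose (SD, n = 6) and 0.846 ± 0.488 FPKM on chow (SD, n = 7), a ratio of means of 14.2. The log2 fold change was 3.17 ± 0.28 (SE, limma adjusted p = 6.44e-05), which by p ranked 2 among all genes tested, after the dopamine transporter gene Slc6a3.

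Chrnb3 encodes a structural subunit that does not bind acetylcholine on its own and is known to join receptors with the Chrna6 product. It stood at 1.78 FPKM at the lowest, 2.40 at the median and 7.92 at the highest in fructose rats, against 0.0462, 0.212 and 0.271 FPKM in chow rats. Fructose replicate 1 held the highest level, far above the next fructose rat at 2.88 FPKM. The means were 3.20 ± 2.36 FPKM on fructose and 0.156 ± 0.0969 FPKM on chow (SD, n = 6 and 7), and the log2 fold change was 2.34 ± 0.26 (SE, limma adjusted p = 0.000376).

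Chrna5, the accessory subunit, stood at 0.958 FPKM at the lowest, 2.24 at the median and 4.92 at the highest in fructose rats, against 0.0793, 0.155 and 0.426 FPKM in chow rats. Here too the diets did not overlap, and fructose replicate 1 was highest and replicate 6 lowest. The means were 2.45 ± 1.38 FPKM on fructose and 0.2002 ± 0.120 FPKM on chow (SD, n = 6 and 7), and on the log2 scale the difference between diets was 1.97 ± 0.24 (SE, limma adjusted p = 0.000828). The chow values of Chrnb3 and Chrna5 lie under the added 0.5 FPKM, so their fold changes are understated, and with 0.1 FPKM added they were 3.57 and 3.01 on the log2 scale. For these 3 genes the call held in each of the 13 fits with 1 rat left out. By an exact permutation test per gene (two-sided, 1716 splits) each had p = 0.000583, the smallest these splits allow, and an adjusted p = 0.0663. That test called 0 genes of the whole table, with 2223 at an unadjusted p under 0.05, against 2269 by limma.

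Chrna6 and Chrnb3 are next to each other on chromosome 16 of the rat genome, and Chrna5, Chrna3 and Chrnb4 form a cluster on chromosome 8. Chrna5 was higher on fructose, while its neighbour Chrna3 differed by -0.84 ± 0.49 on the log2 scale (SE, limma adjusted p = 0.379) and Chrnb4 one of 0.41 ± 0.28 (SE, limma adjusted p = 0.468). The log2 ratio of Chrna5 to Chrna3 was -0.46 ± 0.49 in fructose rats and -3.27 ± 1.27 in chow rats (SD, n = 6 and 7), and its difference of 2.81 was larger than the spread between rats (exact two-sided permutation p = 0.00175, adjusted p = 0.00326 over the 28 pairs of subunits). The promoter windows of these neighbours are shown because they lie in one cluster and their genes had unlike differences between diets. Each runs from 250 bases before to 50 after the start site, read 5′ to 3′ from RefSeq, with GC boxes (GGGCGG on either strand) in capitals.
Chrna5, GRCr8 chr8:64265629-64265928, plus strand: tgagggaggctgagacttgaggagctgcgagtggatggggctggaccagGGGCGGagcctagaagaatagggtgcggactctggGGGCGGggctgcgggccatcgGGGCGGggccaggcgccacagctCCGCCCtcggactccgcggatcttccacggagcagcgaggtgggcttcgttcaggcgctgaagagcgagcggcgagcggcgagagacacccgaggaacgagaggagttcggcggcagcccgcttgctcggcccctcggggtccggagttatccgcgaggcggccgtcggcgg
Chrna3, GRCr8 chr8:64311202-64311501, minus strand: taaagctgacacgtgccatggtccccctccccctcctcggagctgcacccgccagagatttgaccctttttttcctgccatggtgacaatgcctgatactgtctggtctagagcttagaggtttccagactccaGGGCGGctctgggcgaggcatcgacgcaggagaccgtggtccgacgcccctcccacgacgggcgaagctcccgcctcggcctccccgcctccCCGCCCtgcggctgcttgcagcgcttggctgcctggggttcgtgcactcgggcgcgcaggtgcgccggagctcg
The Chrna5 window held 4 GC boxes and the Chrna3 window 2, and 33.1% of 33469 rat windows of the same length held at least 1. The bases G and C made up 71.3% of the Chrna5 window and 66.7% of the Chrna3 window, against a median of 51.7% over all windows. The Chrna3 window also had 2 E-boxes (CANNTG), which 72.1% of windows hold, and the Chrna5 window had 0.

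Chrna3, the ligand-binding subunit of the habenular form, stood at 1.775 FPKM at the lowest, 3.08 at the median and 4.82 at the highest in fructose rats, against 1.28, 5.84 and 23.8 FPKM in chow rats. Chow rats differed 18.6-fold among themselves, with replicates 2 and 7 at 23.8 and 14.4 FPKM and replicates 1 and 4 at 2.28 and 1.28 FPKM, while fructose rats differed 2.715-fold. The means were 3.39 ± 1.19 FPKM on fructose and 8.85 ± 7.97 FPKM on chow (SD, n = 6 and 7). Fructose rats all lay below the chow mean but within the chow range, and the 95% interval of the log2 fold change, -1.89 to 0.21, covers both a marked fall and a small rise. Chrnb4, its usual partner, was the lowest subunit on fructose. It stood at 0.103 FPKM at the lowest, 0.785 at the median and 1.31 at the highest in fructose rats, against 0, 0.514 and 0.804 FPKM in chow rats. It was listed at 0 in chow replicate 7, the rat with the second highest level of Chrna3. The interval of its log2 fold change was -0.19 to 1.00. Within fructose rats Chrna3 and Chrnb4 gave a Pearson r of 0.58 (exact permutation p = 0.221, adjusted p = 0.379 over 12 relations, n = 6). In chow rats r was 0.04 (exact permutation p = 0.94, adjusted p = 0.974, n = 7). Chrna5 with Chrna3 gave r = 0.66 on fructose and 0.34 on chow (exact permutation p = 0.139 and 0.461, adjusted p = 0.278 and 0.616).

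Markers of the habenula gave no single direction. Of 5 listed, 3 were in the table under their symbols (Gpr151, Nhlh2 and Tac1), and none was listed at 0 in any rat. Gpr151, a receptor known from habenular neurons, stood at 1.35 ± 0.492 FPKM on fructose and 1.89 ± 0.504 FPKM on chow (SD, n = 6 and 7), a log2 difference of -0.38 ± 0.18 (SE, limma adjusted p = 0.259). Tac1, a tachykinin precursor that many other neurons express, rose (0.65 ± 0.17, limma adjusted p = 0.0464). The summed level of the 3 ran from 55.9 to 91.9 FPKM in fructose rats and from 39.0 to 71.4 FPKM in chow rats, and most of it was Tac1. The part of habenular tissue in the levels of Chrna3 and Chrnb4 was not tested.

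Chrna4 and Chrnb2 encode the subunits of the main high-affinity nicotine receptor of brain. Chrna4 stood at 23.4 FPKM at the lowest, 38.6 at the median and 46.8 at the highest in fructose rats, against 37.7, 60.6 and 89.0 FPKM in chow rats. The diets overlapped through chow replicate 1, the lowest chow rat, and 3 fructose rats lay below it. The means were 37.3 ± 9.80 FPKM on fructose and 62.1 ± 16.0 FPKM on chow (SD, n = 6 and 7), which on the log2 scale is -0.73 ± 0.19 (SE, limma adjusted p = 0.0453). That call was narrow: it was lost without any one of fructose replicates 2, 3, 4 and 6 or chow replicates 2, 3, 4, 5 and 7, with an adjusted p between 0.0542 and 0.108, while the log2 fold change stayed between -0.84 and -0.61 in all 13 fits. With no filter on low values the adjusted p was 0.0607.

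Chrnb2 was 21.99 FPKM at the lowest, 42.2 at the median and 48.3 at the highest in fructose rats, against 34.3, 56.2 and 81.9 FPKM in chow rats. Every fructose rat lay under the chow mean and 2 lay under all chow rats. The log2 fold change of -0.57 ± 0.19 (SE) was not called (limma adjusted p = 0.115), although its 95% interval, -0.99 to -0.16, which is not adjusted for the number of genes, excluded 0. It was called with array weights (adjusted p = 0.0418) and without chow replicate 6 (adjusted p = 0.0470), the chow rat lowest in Chrnb2. The ratio of Chrna4 to Chrnb2 did not differ between diets beyond the spread between rats: its log2 was -0.03 ± 0.13 on fructose and 0.13 ± 0.31 on chow (SD, n = 6 and 7, exact two-sided permutation p = 0.276, adjusted p = 0.309). Within fructose rats the levels of these subunits rose and fell together (Pearson r = 0.95, exact permutation p = 0.00417, adjusted p = 0.0444 over 12 relations; Spearman rho = 0.94, p = 0.0167, adjusted p = 0.0952; n = 6), with r = 0.78 without the 2 rats farthest from the median. Fructose replicates 1, 3 and 5 were higher in both, at 43.1 to 46.8 FPKM of Chrna4 and 43.5 to 48.3 FPKM of Chrnb2. Replicates 2, 4 and 6 were at 23.4 to 34.1 FPKM of Chrna4 and 21.99 to 40.9 FPKM of Chrnb2. In chow rats Pearson r was 0.66 (exact permutation p = 0.0869, adjusted p = 0.209, n = 7) and rho 0.86 (p = 0.0238, adjusted p = 0.0952), with r = 0.80 without the 2 farthest.

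The promoter windows of this pair are shown because their products form one receptor and their levels moved together, read and marked as above.
Chrna4, GRCr8 chr3:188534477-188534776, minus strand: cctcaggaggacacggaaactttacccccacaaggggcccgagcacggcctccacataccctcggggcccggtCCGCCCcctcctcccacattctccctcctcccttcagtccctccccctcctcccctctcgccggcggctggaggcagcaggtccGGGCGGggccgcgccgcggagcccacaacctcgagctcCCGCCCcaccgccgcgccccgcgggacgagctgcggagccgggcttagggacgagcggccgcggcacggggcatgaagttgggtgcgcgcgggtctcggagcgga
Chrnb2, GRCr8 chr2:177487257-177487556, minus strand: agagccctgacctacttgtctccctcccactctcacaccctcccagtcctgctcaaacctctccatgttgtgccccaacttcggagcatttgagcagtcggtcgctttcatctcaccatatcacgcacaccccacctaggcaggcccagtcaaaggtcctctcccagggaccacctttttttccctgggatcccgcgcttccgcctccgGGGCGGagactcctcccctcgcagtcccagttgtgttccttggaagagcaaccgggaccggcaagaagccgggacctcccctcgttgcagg
The Chrna4 window held 3 GC boxes and 74.7% G and C, and the Chrnb2 window held 1 and 61.0%.

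Chrna7, the subunit of the fast, calcium-permeable receptor that needs no partner, stood at 4.975 FPKM at the lowest, 9.40 at the median and 12.8 at the highest in fructose rats, against 5.34, 7.69 and 9.96 FPKM in chow rats. Fructose rats lay on both sides of the chow range, 3 above all chow rats and 1 below them. The means were 9.225 ± 3.10 FPKM on fructose and 7.81 ± 1.66 FPKM on chow (SD, n = 6 and 7), a log2 difference of 0.18 ± 0.20 (SE, limma adjusted p = 0.679) with an interval of -0.23 to 0.60.

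**Figure D2:**
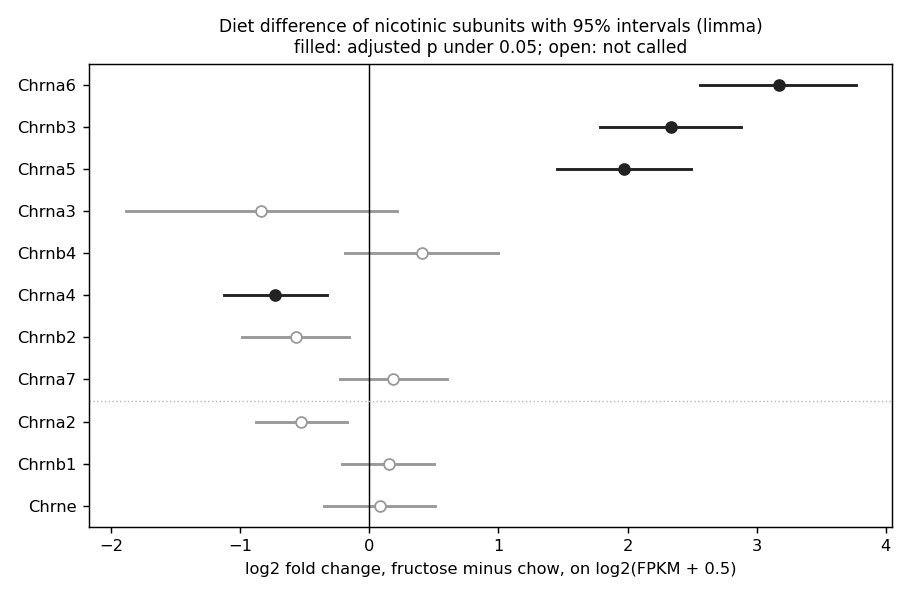
Log2 fold change, fructose minus chow, of the 8 neuronal subunits and, under the dotted line, of 3 other tested subunits, with 95% limma intervals that are not adjusted for the number of genes. Filled points have an adjusted p under 0.05: Chrna6 (3.17), Chrnb3 (2.34) and Chrna5 (1.97) to the right of 0 and Chrna4 (-0.73) to the left.

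Whether subunits differed from each other in their difference between diets was tested on the log2 ratio of each of the 28 pairs, by exact permutation of the rats (two-sided) and with adjustment over the pairs. All 15 ratios of Chrna6, Chrnb3 or Chrna5 to a habenular or widely expressed subunit were higher on fructose. They differed by 1.56 to 4.01 on the log2 scale, with adjusted p between 0.00163 and 0.00408. These ratios share numerators and denominators, and each difference follows from the fold changes of its subunits. The 15 tests are therefore not independent of those fold changes. Chrna5, counted here as a dopamine neuron subunit, is also known from habenular neurons. Chow means of Chrnb3, Chrna5 and Chrnb4 lay under the added 0.5 FPKM, so the sizes of their ratios depend on that amount. With 0.1 FPKM added, Chrna5 to Chrnb4 differed by 2.25 (adjusted p = 0.0173). The ratio of Chrna6 to Chrna4 had a log2 of -1.67 ± 0.69 on fructose and -5.57 ± 0.66 on chow (SD, n = 6 and 7, exact permutation p = 0.000583, adjusted p = 0.00163). Ratios among the dopamine neuron subunits depended on the amount added before the logarithm. The ratio of Chrna6 to Chrnb3 differed by 0.83 (adjusted p = 0.0232), but by 0.12 (adjusted p = 0.808) with 0.1 FPKM added, and that of Chrna6 to Chrna5 by 1.2 (adjusted p = 0.00326), but by 0.69 (adjusted p = 0.150).

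Chrna7 parted from the other widely expressed subunits. The log2 ratio of Chrna4 to Chrna7 was 1.98 ± 0.40 on fructose and 2.90 ± 0.53 on chow, and that of Chrnb2 to Chrna7 2.01 ± 0.30 on fructose and 2.76 ± 0.33 on chow (SD, n = 6 and 7). These differences of -0.92 and -0.76 passed (exact permutation p = 0.00991 and 0.00408, adjusted p = 0.0154 and 0.00672). No ratio of Chrna3 to Chrnb4, Chrna4, Chrnb2 or Chrna7 passed (adjusted p between 0.0868 and 0.835). Those of Chrnb4 to Chrna4 and Chrnb2 differed by 1.14 and 0.98 (adjusted p = 0.0318 and 0.0350), calls that were lost with 0.1 FPKM added (adjusted p = 0.0961 and 0.1). With 1 rat left out they also failed: the Chrna4 ratio without fructose replicates 2, 3 or 4 or chow replicates 2, 4 or 7 (adjusted p between 0.0576 and 0.0689), and the Chrnb2 ratio without these or fructose replicate 1 (adjusted p between 0.0505 and 0.0741).

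**Figure D3:**
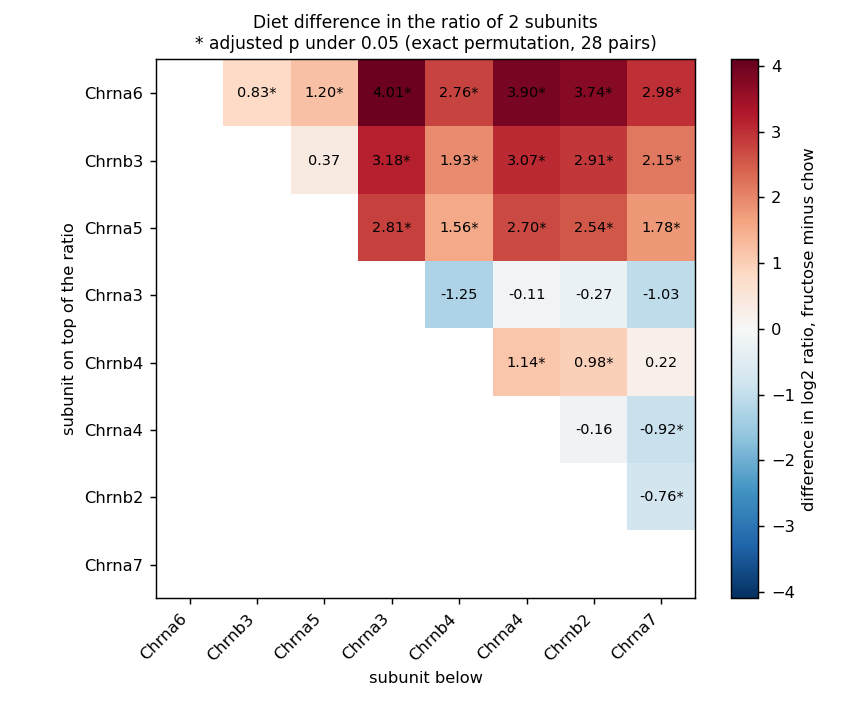
Difference between diets (fructose minus chow) in the log2 ratio of each pair of subunits, the row gene over the column gene, from 6 fructose and 7 chow rats. Asterisks mark an adjusted p under 0.05; the upper 3 rows, Chrna6, Chrnb3 and Chrna5, are higher against all 5 other subunits, by 1.56 to 4.01.

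The order of levels differed with diet in the dopamine neuron subunits. On fructose it ran Chrnb2, Chrna4, Chrna6, Chrna7, Chrna3, Chrnb3, Chrna5 and Chrnb4, and ranges did not overlap between Chrna4 and Chrna6 or between Chrna7 and Chrna3. The other neighbours overlapped, and Chrna6 exceeded Chrna7 in 4 of 6 rats. On chow it ran Chrna4, Chrnb2, Chrna3, Chrna7, Chrna6, Chrnb4, Chrna5 and Chrnb3. Neighbours in this order had gaps after Chrnb2 and after Chrna7 and overlapped elsewhere. Chrna3 overlapped Chrna6 too: in chow replicate 4 Chrna3 was at 1.28 FPKM, under Chrna6 at 1.78 FPKM. Chrna3 exceeded Chrna7 in 3 of 7 chow rats, so that neighbouring pair has no settled order. The 4 subunits below Chrna7 on chow all stayed under 2 FPKM in every chow rat.

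The make-up of subunit RNA shifted with these levels. The sum of the 8 was 106 ± 27.8 FPKM on fructose and 137 ± 35.3 FPKM on chow (SD, n = 6 and 7), and ranged from 71.8 to 149 FPKM in fructose rats and from 96.8 to 204 FPKM in chow rats. Chrna4 and Chrnb2 together made up 63.2% to 77.4% of it in fructose rats and 83.6% to 92.3% in chow rats. Chrna6, Chrnb3 and Chrna5 together made up 8.07% to 25.2% in fructose rats and 0.447% to 1.41% in chow rats. Chrna6 alone contributed 11.5% ± 4.78 on fructose and 0.650% ± 0.381 on chow (SD, n = 6 and 7).

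**Figure D4:**
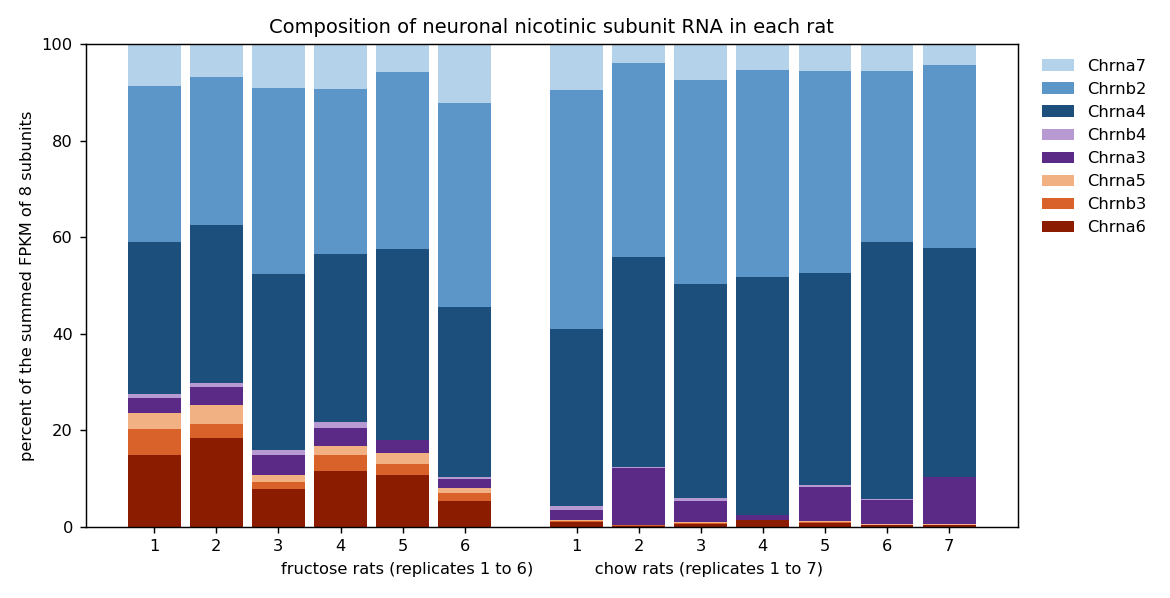
Percent of the summed FPKM of the 8 subunits contributed by each, in each of 6 fructose and 7 chow rats. Chrna4 and Chrnb2 fill most of every bar, and Chrna6, Chrnb3 and Chrna5 at the bottom reach 8.07% to 25.2% in fructose rats and at most 1.41% in chow rats.

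Markers of midbrain dopamine neurons moved with Chrna6, Chrnb3 and Chrna5. Of 19 such markers, listed with earlier results of these data known, 17 were in the table and 16 were tested. Of these 15 rose, 0 fell and 1 was not called, where 1.66% of all genes tested rose, and the median log2 fold change was 1.22. Pitx3 and Foxa2 averaged 0.0819 and 0.248 FPKM on chow and reached the tested level only through the fructose rats. None of the 17 was listed at 0 in any fructose rat, and some were in chow rats, such as Pitx3 in 5 of 7 and En2 in 3 of 7. The summed level of the 17 ran from 278 to 702 FPKM in fructose rats and from 123 to 167 FPKM in chow rats. Slc6a3 was 28.3 to 125 FPKM on fructose and 0.285 to 5.95 FPKM on chow, and Th, tyrosine hydroxylase, 51.9 to 193 FPKM on fructose and 14.1 to 27.8 FPKM on chow. The part of dopamine neuron content in the subunit differences was not tested.

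Within fructose rats Chrna6 followed these genes closely. Fructose replicate 1 had the highest and replicate 6 the lowest marker sum, and likewise for Chrna6, Chrnb3 and Chrna5. Chrna6 and the marker sum, both on the log2 scale and a relation chosen after the values were seen, gave Pearson r = 0.998 in fructose rats (exact permutation p = 0.00139, adjusted p = 0.00278 over 4 such relations, n = 6), a Spearman rho of 1 (exact p = 0.00278, adjusted p = 0.0111), and r = 0.982 without the 2 rats farthest from the median. In chow rats the same r was 0.421 (exact permutation p = 0.362, adjusted p = 0.362, n = 7) and rho 0.179 (p = 0.713, adjusted p = 0.713), and r was 0.22 without the 2 farthest. Chrna6 with Chrna5 gave r = 0.99 in fructose rats (exact permutation p = 0.00972, adjusted p = 0.0444, n = 6; rho = 0.94, p = 0.0167, adjusted p = 0.0952; r = 0.96 without the 2 farthest) and r = -0.13 in chow rats (exact permutation p = 0.758, adjusted p = 0.909, n = 7; rho = -0.11). Chrna6 with Chrnb3 gave r = 0.82 in fructose rats (exact permutation p = 0.0528, adjusted p = 0.158, n = 6, rho = 0.83), a value that rested on the 2 farthest rats, since r was 0.30 without them. In chow rats r was -0.01 (exact permutation p = 0.974, adjusted p = 0.974, n = 7, rho = -0.04). Chrna6 with Slc6a3 gave r = 0.98 in fructose rats (exact permutation p = 0.0111, adjusted p = 0.0444, n = 6, rho = 0.89). In chow rats r was 0.34 (exact permutation p = 0.462, adjusted p = 0.616, n = 7). Of the 12 relations 3 passed by Pearson r.

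Markers of the thalamus, which borders the hypothalamus, moved with Chrna4. All 13 listed markers were tested, and 0 rose, 8 fell and 5 were not called, where 2.27% of all genes tested fell. Their median log2 fold change was -1.24, and none was at 0 in any rat. Tnnt1, not called, was the only marker higher on fructose. It stood at 8.07 ± 4.95 FPKM on fructose and 3.91 ± 2.11 FPKM on chow (SD, n = 6 and 7, log2 fold change 0.95 ± 0.37, limma adjusted p = 0.174). The summed level of the 13 ran from 106 to 528 FPKM in fructose rats and from 276 to 1034 FPKM in chow rats. Chow replicate 1, the chow rat lowest in Chrna4, was also lowest in this sum, fructose replicate 2, lowest of all in Chrna4 and Chrnb2, had the lowest sum of all, and chow replicate 2, highest of all in Chrna4, Chrnb2 and Chrna3, had the highest. Chrnb2 did not keep to this order in chow rats: replicate 6, lowest in Chrnb2 at 34.3 FPKM, had a sum of 560 FPKM, and replicate 1, with the lowest sum, had Chrnb2 at 51.0 FPKM. Chrna4 followed the sum within both diets, again a relation chosen after the values were seen. Pearson r was 0.955 in fructose rats (exact permutation p = 0.00694, adjusted p = 0.00926, n = 6; rho = 0.943, p = 0.0167, adjusted p = 0.0222; r = 0.961 without the 2 farthest). In chow rats it was 0.957 (exact permutation p = 0.000992, adjusted p = 0.00278, n = 7; rho = 0.929, p = 0.00675, adjusted p = 0.0135; r = 0.824 without the 2 farthest). The part of thalamic tissue in the difference of Chrna4 was not tested.

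**Figure D5:**
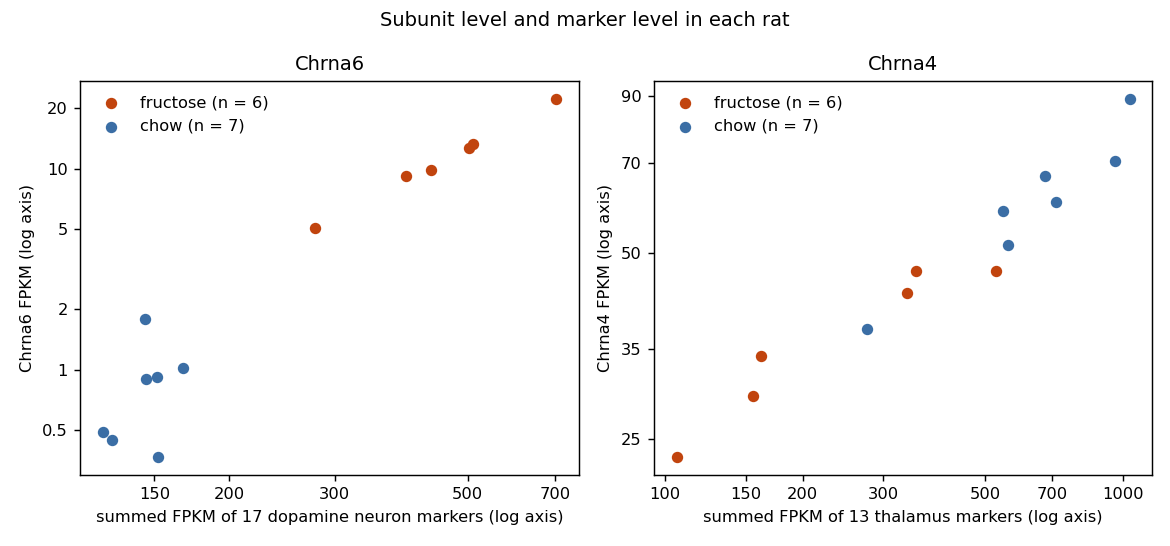
Left, FPKM of Chrna6 against the summed FPKM of 17 dopamine neuron markers; right, FPKM of Chrna4 against the summed FPKM of 13 thalamus markers, in each rat on log axes. Fructose rats lie at marker sums of 278 to 702 on the left, apart from chow rats at 123 to 167, and on the right the diets overlap and Chrna4 rises with the sum in both.

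Markers of other tissue gave further values. The globin and erythroid list had 3 of 3 tested genes higher, where 1.66% of all genes tested were. Its sum was 352 to 1530 FPKM in fructose rats and 175 to 422 FPKM in chow rats. Alas2 of that list averaged 0.421 FPKM on chow and reached the tested level only through the fructose rats. The serotonin neuron markers Tph2, Slc6a4 and Fev summed to at most 0.566 FPKM in fructose rats and 0.605 FPKM in chow rats.

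Genes whose deviations from the diet means ran most like those of a subunit were listed as a description over the 13 rats, where all genes share the same libraries. Rows with predicted, joined or suffixed symbols were passed over. The highest r among so many genes lie far above the median by selection. For Chrna6 these were Dnaaf2 (r = 0.933), Slc10a4 (0.866), Ucn (0.855), Ddc (0.834) and Slc18a2 (0.826), with a median r over all genes of 0.003. Slc10a4, Ddc and Slc18a2 are genes of monoamine neurons, Ucn encodes the peptide urocortin, and all of these but Dnaaf2 rose on fructose. For Chrna4 they were Gabbr2 (0.982), Slc6a17 (0.976), Adarb1 (0.975), Atp2b1 (0.971) and Rtn4rl1 (0.970), of which all but Rtn4rl1 (limma adjusted p = 0.0656) fell. Gabbr2 encodes a subunit of the GABA-B receptor and Atp2b1 a calcium pump of the cell membrane. For Chrna3 they were Mkrn1 (0.896), Fam212a (0.881), Loxl2 (0.876), Rxfp2 (0.876) and Ppp3ca (0.869), and none of these was called between diets (limma adjusted p between 0.166 and 1.00).

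The rest of the cholinergic system was described from a list of 34 genes outside the 8 subunits, of which 32 were in the table and 23 were tested. Of these 23, 2 rose and 1 fell, where 3.94% of all genes tested were called, and 7 had an unadjusted p under 0.05, where 19.2% of all genes did. The median log2 fold change was 0.05. Among the 3 tested nicotinic subunits, Chrna2 stood at 0.427 ± 0.181 FPKM on fructose and 0.839 ± 0.291 FPKM on chow (SD, n = 6 and 7, log2 fold change -0.53 ± 0.17, limma adjusted p = 0.0941), and the muscle subunits Chrnb1 and Chrne did not pass (adjusted p = 0.709 and 0.884). Chrnd was listed at 0 in all 13 rats, and Chrna9, Chrna10, Chrna1 and Chrng were too low to be tested.

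The genes for making and transporting acetylcholine were low here. Chat, the enzyme of acetylcholine synthesis, was 0.506 ± 0.174 FPKM on fructose and 0.406 ± 0.272 FPKM on chow, and Slc18a3, the vesicular acetylcholine transporter, 0.339 ± 0.122 FPKM on fructose and 0.483 ± 0.236 FPKM on chow (SD, n = 6 and 7); both were under the level tested. Slc5a7, the choline transporter, was 1.79 ± 0.304 FPKM on fructose and 1.89 ± 0.542 FPKM on chow (limma adjusted p = 0.933). Ache, acetylcholinesterase, was far higher, at 149 ± 14.7 FPKM on fructose and 144 ± 12.96 FPKM on chow (limma adjusted p = 0.763), while Prima1, which anchors that enzyme in the membrane, rose. Prima1 stood at 19.0 ± 1.71 FPKM on fructose and 14.2 ± 1.88 FPKM on chow (SD, n = 6 and 7), with 5 of 6 fructose rats above all chow rats, and its log2 fold change was 0.41 ± 0.09 (SE, limma adjusted p = 0.0258).

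Of 11 tested receptor chaperones and modulators 1 was called, where 3.94% of all genes were. Lynx1, a membrane-anchored brake on nicotinic receptors, stood at 137 ± 6.27 FPKM on fructose and 149 ± 13.2 FPKM on chow, and Ric3, a chaperone of their assembly, at 18.7 ± 1.75 FPKM on fructose and 19.9 ± 1.61 FPKM on chow (SD, n = 6 and 7, limma adjusted p = 0.299 and 0.5). Ywhah, the 14-3-3 eta protein, was the 1 that fell, at 976 ± 95.6 FPKM on fructose and 1231 ± 135 FPKM on chow (-0.33 ± 0.08, limma adjusted p = 0.0380). Among 4 tested muscarinic receptors Chrm4, an inhibitory receptor, rose, at 3.60 ± 0.571 FPKM on fructose and 2.53 ± 0.282 FPKM on chow (0.43 ± 0.10, limma adjusted p = 0.0366). No chow rat reached the level of the lowest fructose rat for Chrm4. Of all genes tested 1.66% rose and 0.879% lay wholly above. The other 3 muscarinic receptors were not called: Chrm3 differed by -0.29 ± 0.11, Chrm1 by 0.32 ± 0.21 and Chrm5 by 0.58 ± 0.24 (SE, limma adjusted p = 0.17, 0.431 and 0.189). The Prima1 call was lost without fructose replicate 2 or 4 or chow replicate 2 or 4 (adjusted p between 0.0516 and 0.0636). That of Ywhah held only without fructose replicate 1 or 5 or chow replicate 1 or 3, and otherwise reached an adjusted p of up to 0.0927; it was also lost with no filter on low values (0.0544). That of Chrm4 held only without fructose replicate 1 or chow replicate 1, and otherwise reached up to 0.0799; it was also lost with quantile normalization (0.0694).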

How the data were processed

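Per the labels' protocols, whole hypothalamus was lysed with Trizol and QiaShredder, RNA was purified with an RNeasy kit, and 1 µg went into each mRNA library. The authors deposited FPKM values with a column for each rat. The tools named in the submitters' processing notes are Cuffdiff, Cufflinks 2.1.1 and STAR 2.3.0e, and the build is rn5; on their settings, the annotation and the scaling of libraries nothing is given in the sources used here. Of 17366 rows, 2954 were listed at 0 in all 13 rats. Depth is unknown. Precision rests on the spread between rats.

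Columns were matched to rats by title, and replicate numbers follow accession order and pair nothing. The 11837 genes averaging 0.5 FPKM or more were fitted as log2(FPKM + 0.5) with limma 3.58.1 in R 4.3.3 (intensity trend, two-sided, Benjamini-Hochberg over all genes). Single values were compared by exact permutation over 1716 splits. Alternatives were other pseudocounts, filters, scalings, array weights, the permutation test per gene and leaving out each rat. The procedure was tested on simulated data. Named genes are the 8 subunits, fixed cholinergic and marker lists, and the 5 genes most like each of Chrna6, Chrna4 and Chrna3, passing over predicted, joined or suffixed symbols. Members and lists were chosen with earlier results of these data known. Promoter windows and gene order come from RefSeq, build GRCr8, which held windows of 6 of the 8 subunits, all but Chrna6 and Chrnb3; no coordinates of the FPKM table's own build are used.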

Additional observations from a re-analysis of the deposited data

Results flagged for a closer look

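Chrnb3 in fructose replicate 1, at 7.92 FPKM, stood apart from the other fructose rats, the next of which was at 2.88 FPKM. The gap was 0.820 of the range of the 6 rats, above the 0.625 at which a single value stands out in a group of 6. Of 16 groups examined (8 subunits in 2 diets) this was the only one flagged, and chance flags about 1 in 20. The log2 fold change of Chrnb3 without that rat is within the range given for leaving out single rats, 2.06 to 2.44.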

How the results depend on the processing

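The directions of all 8 subunit differences held under every alternative run. With 1 rat left out, the number of genes called over the whole table, 466 with all rats, ran from 83 to 859 (without fructose replicate 2, 4 or 6: 147, 83 and 113; without chow replicate 1, 2, 3, 4, 5 or 7: 859, 89, 304, 103, 187 and 153); it was 308 with no filter on low values, 1019 with array weights and 0 with the exact permutation test, and the cause was not tested. Of the 8 subunits 4 were called with all rats, 2 where a mean of at least 2 FPKM was asked, which leaves Chrnb3, Chrna5 and Chrnb4 untested, and 0 with the exact permutation test. Among other cholinergic genes the 3 calls came to 0 with that test and to between 0 and 5 with 1 rat left out: 0 without fructose replicate 2 or 4 or chow replicate 2 or 4, 1 without fructose replicate 3 or 6 or chow replicate 5, 6 or 7, and 5 without chow replicate 1. The log2 fold change ran from 2.74 to 3.70 for Chrna6, from 1.73 to 3.57 for Chrnb3 and from 1.44 to 3.01 for Chrna5 over the other settings, mainly with the pseudocount. Of the 28 pair ratios 21 passed. No paired analysis was possible because the replicate numbers follow accession order and pair no rats. The depth of the libraries is unknown, so the low chow values of Chrnb3, Chrna5 and Chrnb4 carry a counting error that cannot be given.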
